A study of Saccharomyces cerevisiae with 8 samples.

Results

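MNase-rpL35 is a fusion of micrococcal nuclease to the yeast large ribosomal subunit protein rpL35 (uL29). The cuts it made in 25S rRNA of late large subunit precursors (25S-preLSUs) were mapped as stops of reverse transcription, nucleotide by nucleotide. The termination to coverage ratio (TCR) of a nucleotide is the share of cDNA fragments covering it that end there. It was compared between the MNase-rpL35 library and the library of a strain without MNase, at all 3396 nucleotides of 25S rRNA among the 10000 nucleotides of the rDNA table. Each of these 2 libraries stands for 1 condition, so no value has a replicate error, no test of a difference was possible and every comparison is between these libraries only. Read coverage is not given in the table, and the precision of a TCR, which depends on it, is unknown.

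The series holds 8 libraries, from 2 purifications of LSU precursors with 1 library for each of the fusions MNase-rpL35, MNase-rpL27 and MNase-rpL5 and 1 without MNase in either. 25S-preLSUs were purified via TAP-tagged Lsg1, a GTPase that acts late and in the cytoplasm, and calcium was added to switch on the nuclease. Both strains compared here carry LSG1-TAP and the markers his3-1, leu2-0 and ura3-0, and both were grown in rich medium. In the MNase-rpL35 strain both chromosomal genes of rpL35, RPL35A (YDL191w, chromosome IV, 117664 to 118517) and RPL35B (YDL136w, chromosome IV, 217600 to 218367, build R64), were replaced with kanMX4 and HIS3MX6. A plasmid with the RPS28 promoter was its source of rpL35, as MNase-HA-rpL35. The strain without MNase has intact RPL35A and RPL35B and no plasmid, so the nuclease cannot be told apart from the plasmid-borne rpL35 as the source of a difference.

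In the large subunit, rpL35 contacts 5.8S rRNA and sits at the rim of the opening through which the nascent chain leaves, on the side facing away from the small subunit. Micrococcal nuclease needs calcium and cuts RNA that is within reach and not held in a helix, so a nuclease tethered to a ribosomal protein cuts mainly near the site where that protein is bound. 25S rRNA folds into domains linked to 5.8S rRNA and carries expansion segments (ES), helices that bacterial rRNA lacks and that extend from the surface of the subunit. In the first annotated rDNA repeat, 25S rRNA (RDN25-1) lies on the reverse strand of chromosome XII, from 451786 to 455181 in build R64, and chromosomal positions below refer to it. A second repeat (RDN25-2, 460923 to 464318) is annotated with the same length, and the table does not separate repeats.

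Most nucleotides of 25S rRNA gave few stops in either library. The median TCR was 0.0503% with MNase-rpL35 and 0.0418% without MNase, and the 99th percentiles were 11.99% and 14.06%. TCR values of 0 were listed at 1107 nucleotides with MNase-rpL35 and at 972 without MNase. The estimated noise, an estimate by the authors of the background at each position, had a median of 0.941%. The last 124 nucleotides, after nucleotide 3272, were listed at 0 in all 4 libraries of 25S-preLSUs, so cuts there could not be seen. A further 211 nucleotides upstream of this end were also at 0 in all 4.

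Some stops need no nuclease, namely those at the 5’ end of 25S rRNA and at the base methylations m1A645, m1A2142, m3U2634 and m3U2843. The highest TCR over 3 nucleotides within 2 nucleotides of these positions was 91.1%, 98.3%, 92.4%, 89.5% and 39.7% with MNase-rpL35, in that order. Without MNase the same stops gave 92.7%, 95.9%, 87.1%, 48.7% and 41.4%. They were close in both libraries except at m3U2634, where the library without MNase was lower than all 3 MNase libraries (83.98% to 89.99%). With MNase-rpL35, the highest single nucleotide was 646 at m1A645 and 2635 at m3U2634, but 2142 and 2843 themselves at the others, so a stop can lie 1 nucleotide beside the position that causes it. The 23 nucleotides within 2 nucleotides of these stops were left out, and 3373 were compared.

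**Figure D1:**
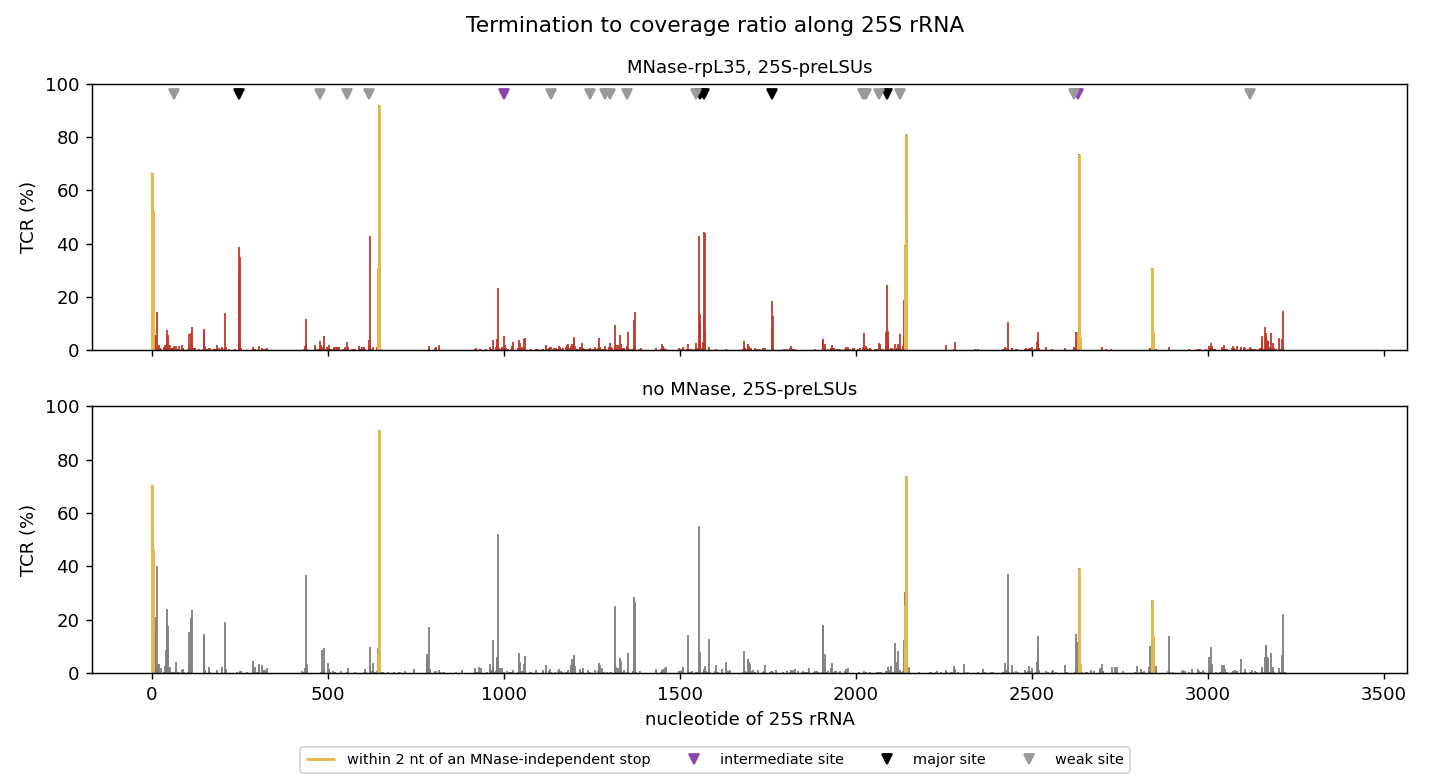
TCR in percent at each nucleotide of 25S rRNA with MNase-rpL35 (top) and without MNase (bottom), in 25S-preLSUs. Yellow bars lie within 2 nucleotides of stops that need no MNase, and triangles mark the 24 sites described in the text. The groups of bars at nucleotides 248, 1763 and 2089 are seen only in the top panel. Near 1568 the bottom panel also has bars, from a strong stop at nucleotide 1556.

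A nucleotide was counted as an MNase-rpL35 dependent stop at a TCR of at least 1%, above the noise and over 5 times the TCR without MNase. This held for 43 nucleotides, 1.27% of those compared. The same rule with the libraries exchanged gave 45 nucleotides (1.33%) that were higher without MNase, so the number of counted nucleotides is not itself above the difference between the libraries in the other direction. The heights differed more. The median TCR of the 43 nucleotides was 3.87% with MNase-rpL35 against 0.255% without MNase, and that of the 45 was 2.29% without MNase against 0.288% with MNase-rpL35. A TCR of at least 10% was reached by 10 of the 43 but by 6 of the 45, and the highest values were 44.4% and 17.4%.

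Joined where they lay within 2 nucleotides, the 43 nucleotides formed 24 sites. The value of a site below is the TCR over its highest nucleotide and the direct neighbours, so it counts a stop at any of the 3. At 5 major sites this TCR reached 15% or more and exceeded both the noise and the window without MNase by more than 5 times. The same 2 folds were passed below 15% at 2 intermediate sites, and 17 weak sites passed only the rule for single nucleotides. Exchanging the libraries gave 34 sites, of which 4 were major, 10 intermediate and 20 weak. Windows centred on 19 nucleotides (0.563%) met the major criteria with MNase-rpL35, against 8 (0.237%) with the libraries exchanged. The TCR of the major sites ranged from 17.5% to 56.9%, and that of the 4 exchanged ones from 15.3% to 20.2%.

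**Figure D2:**
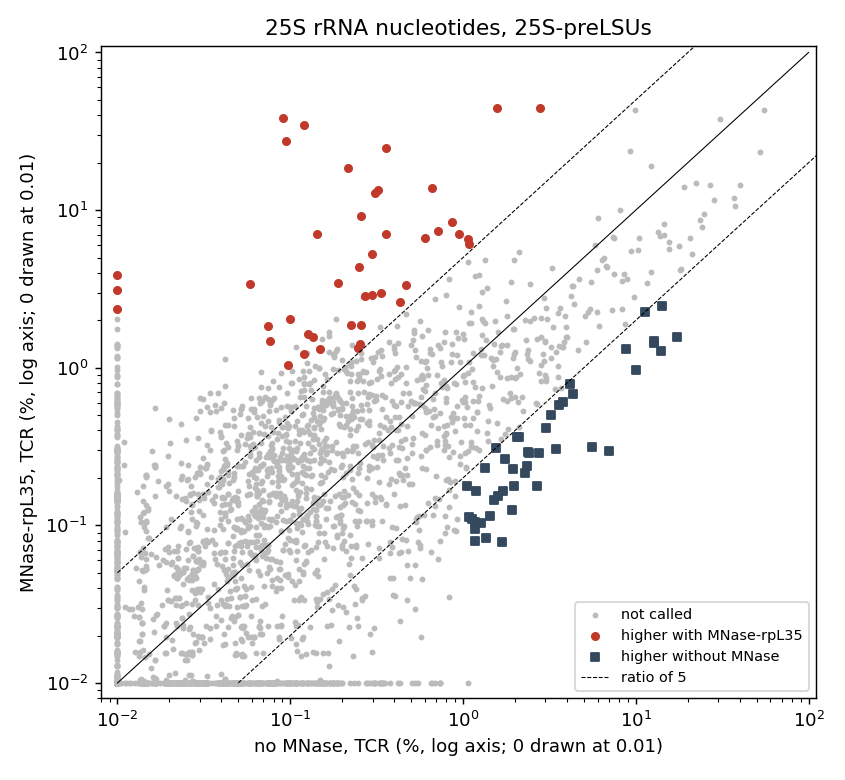
TCR with MNase-rpL35 against TCR without MNase for the compared nucleotides of 25S rRNA, both on log axes in percent, with values of 0 drawn at 0.01. Red points are the 43 nucleotides counted as higher with MNase-rpL35, dark squares the 45 higher without MNase, and grey points beyond the dashed lines were below 1% or not above the noise.

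The site with the highest TCR over 3 nucleotides lay at nucleotides 247 to 251, in the internal loop between helices H16 and H17 of domain I. The 3 central nucleotides had similar stops with MNase-rpL35, of 38.6% at nucleotide 248 (chromosome XII, 454934), 27.3% at U249 (454933) and 34.9% at U250 (454932). Nucleotides 247 and 251 on the flanks had 3.38% and 4.39%. Without MNase the 5 nucleotides had 0.0583% to 0.250%, below the noise of 0.558% to 1.04%. The stops thus formed a plateau 3 nucleotides wide rather than a single peak. The TCR over 3 nucleotides was 56.9% centred on 248, against 0.244% without MNase, 233 times higher, and it was 70.9% centred on U249. MNase-rpL27 gave 71.3% at the window of 248 and MNase-rpL5 gave 7.06%. Over all 5 nucleotides together, MNase-rpL35 stopped 73.2% of the covering fragments, MNase-rpL27 88.7%, MNase-rpL5 21.0% and the library without MNase 0.613%. The highest nucleotide was 248 with MNase-rpL35 and 250 with MNase-rpL27 (57.8%) and MNase-rpL5 (13.4%).

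ES19, an expansion segment of domain III, held 2 of the major sites. The first covered nucleotides 1567 to 1572 and had 2 peaks of nearly the same height, 44.4% at U1568 (453614) and 44.2% at A1571 (453611). Between them, nucleotides 1569 and 1570 had 13.7% and 9.22%, so the peaks were separate. Without MNase U1568 had 1.58% and A1571 2.77%, the second of which was above the noise of 1.19%. Over 3 nucleotides the TCR was 53.6% at U1568 against 2.68% without MNase, 20.0 times higher, and 52.9% at A1571 against 3.37%, 15.7 times higher. In 27SB-preLSUs, the earlier precursor described at the end, A1571 alone had 18.4% without MNase and 22.1% with MNase-rpL35. This position thus also stopped reverse transcription with no nuclease. The 2 peaks had unequal heights with MNase-rpL27 (64.7% and 43.9%) and MNase-rpL5 (10.3% and 6.54%). The 6 nucleotides jointly stopped 78.2% of the fragments with MNase-rpL35, 87.0% with MNase-rpL27, 23.7% with MNase-rpL5 and 5.96% without MNase. By this measure and by its highest single nucleotide, the site exceeded that at 247 to 251.

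The second site of ES19 was the single nucleotide A1559 (453623), with 13.5% against 0.324% without MNase. Its TCR over 3 nucleotides was 17.5% with MNase-rpL35, 15.1% with MNase-rpL27, 15.6% with MNase-rpL5 and 1.29% without MNase. The 3 fusions were thus nearly equal here, unlike at U1568. A1558 beside it did not pass on its own, with 3.66% against 0.828%. Nucleotide 1556, 3 nucleotides away, was a strong stop in every library and highest without MNase (55.2%, against 42.9% with MNase-rpL35). A window centred on A1558 takes in nucleotide 1557, which had 10.0% with MNase-rpL35 and 8.05% without MNase, and was only 2.75 times higher with MNase-rpL35.

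The site at nucleotides 1762 to 1764, in domain III on the side of the subunit away from the interface, was the one that set MNase-rpL35 apart from the other fusions. MNase-rpL35 gave 8.37% at nucleotide 1762 (453420), 18.6% at 1763 (453419) and 12.9% at U1764 (453418). The other 3 libraries lay between 0.216% and 1.43% at these nucleotides. Only MNase-rpL35 therefore gave stops well above the noise of 1.08% to 1.27%. The TCR over 3 nucleotides at 1763 was 35.03% with MNase-rpL35, 2.38% with MNase-rpL5, 1.39% without MNase and 1.13% with MNase-rpL27. It was 25.2 times the value without MNase and 14.7 times that of MNase-rpL5, the next fusion. The stops fell off sharply, to 0.0756% at nucleotide 1761 and 0.457% at 1765.

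Nucleotides 1762 to 1764 were also met in a direct comparison of the fusions. It used the same MNase-rpL35 values, so it is not independent of the result above. The library without MNase entered it only through the noise, which was estimated jointly for the libraries of this purification. Of the 3373 compared, 6 (0.178%) had a TCR of at least 1%, above the noise and over 5 times that of both MNase-rpL27 and MNase-rpL5. These were 1762, 1763 and 1764, and nucleotides 962, 979 and 982, where MNase-rpL35 had 1.15%, 1.40% and 2.13%. At 962 and 982 the library without MNase was higher still (3.22% and 5.08%), and at 979 it had 0.719%, so none of these 3 was counted as a dependent stop. By the same rule 3 nucleotides (0.0889%) stood out for MNase-rpL27 and 5 (0.148%) for MNase-rpL5.

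Cuts in ES27, a long and mobile expansion segment, were strong at its nucleotides 2087 to 2091 and weak at 2067 to 2069. In the first stretch MNase-rpL35 gave 24.7% at A2089 (453093), 7.01% at 2087, 2.61% at 2088, 7.03% at 2090 and 7.42% at 2091. Without MNase these nucleotides had 0.144% to 0.943%, below the noise of 1.56% to 1.85%. The TCR over 3 nucleotides at A2089 was 31.8% with MNase-rpL35, 63.2% with MNase-rpL27, 15.6% with MNase-rpL5 and 0.935% without MNase, which made MNase-rpL35 34.0 times higher than no MNase and 0.503 times MNase-rpL27. In the second stretch the 3 nucleotides had 2.88%, 2.35% and 1.84% with MNase-rpL35, close to the noise of 1.52% to 1.55%, against 12.3%, 20.2% and 7.17% with MNase-rpL27. Centred on U2068 (453114), the TCR over 3 nucleotides was 6.91% with MNase-rpL35, 35.02% with MNase-rpL27, 3.66% with MNase-rpL5 and 0.372% without MNase. MNase-rpL35 thus stood between the other fusions in both stretches, much further below MNase-rpL27 in the second.

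**Figure D3:**
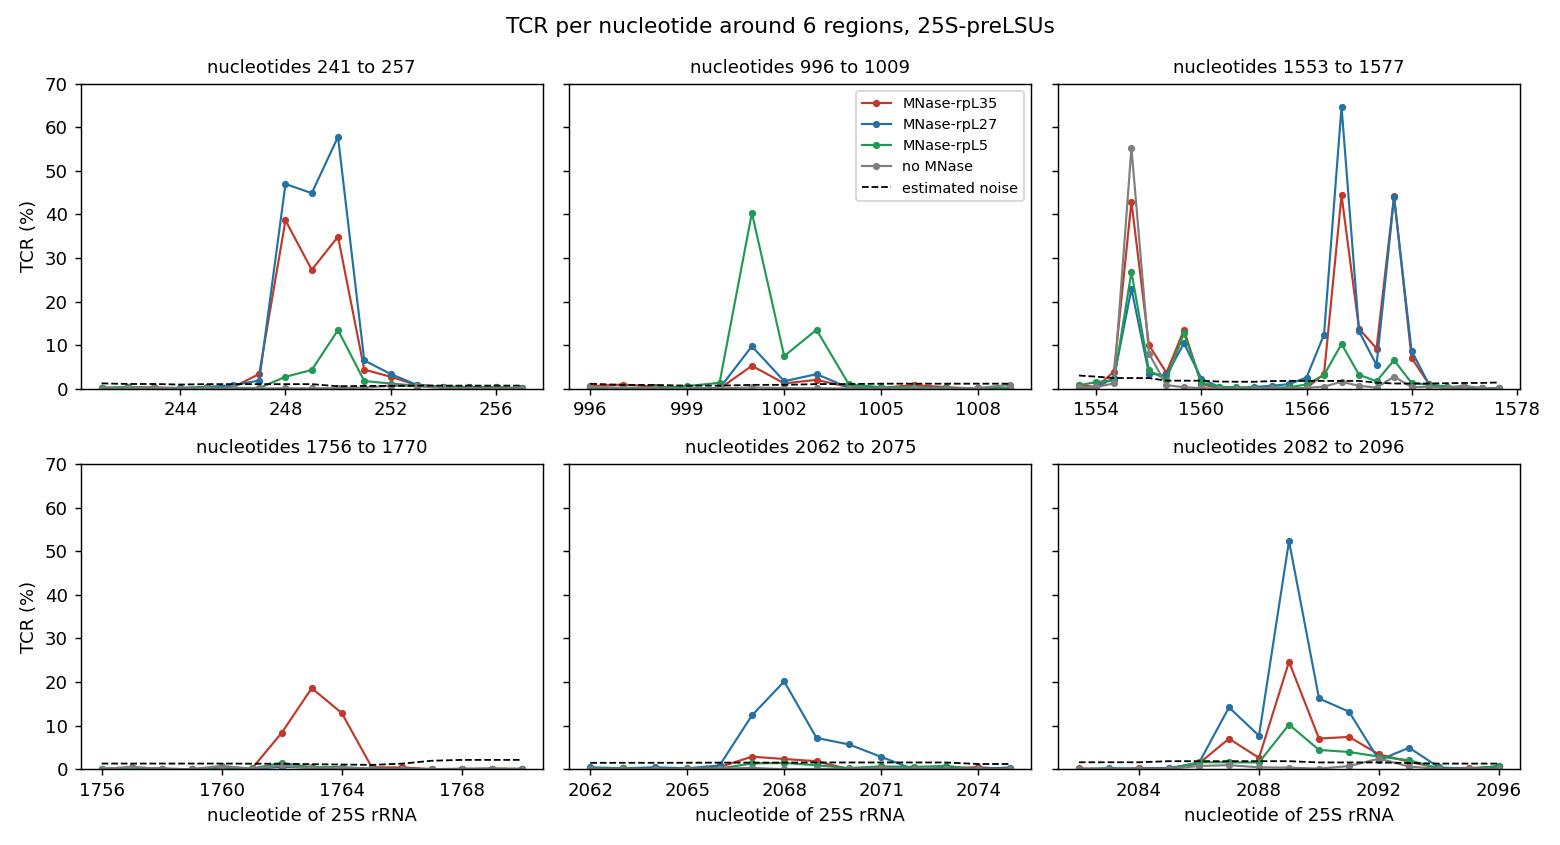
TCR in percent at each nucleotide around 6 regions of 25S rRNA for the 4 libraries of 25S-preLSUs, with the estimated noise as a dashed line. The red line of MNase-rpL35 follows the shape of MNase-rpL27 near nucleotide 1568 and 2089, and is alone above the noise at 1763 and 1764.

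An intermediate site lay at nucleotides 1001 to 1003 in helix H38, a long helix near the site where rpL5 and 5S rRNA are bound. MNase-rpL35 gave 5.26% at G1001 (454181), 1.22% at 1002 and 2.03% at 1003, and without MNase none of them exceeded 0.298%. The TCR over 3 nucleotides at G1001 was 6.41% with MNase-rpL35 against 0.477% without MNase, 13.5 times higher. It was 45.6% with MNase-rpL5 and 11.4% with MNase-rpL27, so MNase-rpL35 had the lowest TCR of the 3 fusions at this site. All 3 fusions had their highest nucleotide at 1001 and a lower one at 1003.

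The other intermediate site, nucleotide 2631 (452551), lay 3 nucleotides from m3U2634, just outside the excluded zone. It had 6.53% with MNase-rpL35, 3.05% with MNase-rpL27, 7.85% with MNase-rpL5 and 1.06% without MNase. Over 3 nucleotides the values were 13.6%, 7.67%, 14.5% and 1.54%. The neighbouring stop at m3U2634 showed the same order, with the library without MNase lowest, and its part in the values at 2631 was not tested. Nucleotide 2631 was no longer counted when positions up to 5 nucleotides from such stops were left out.

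The sequencing table gave no dependent stop with MNase-rpL35 at 4 further positions examined in the study. A2540 (452642) and U2570 (452612), in helices b and c of ES31 in domain V, had a TCR over 3 nucleotides of 1.53% and 0.411% with MNase-rpL35, against 0.811% and 0.494% without MNase. At A2540, MNase-rpL35 was 1.89 times the library without MNase and under MNase-rpL27 (3.47%). A2640 (452542) and A2643 (452539) in helix H81 had 0.545% and 0.280%, against 0.426% and 0.424% without MNase. None of the 4 windows differed from the library without MNase by the 5-fold used here. These values do not show that the positions were uncut. The sequencing had a size limit for cDNAs, so the study read certain cleavage sites, the ES31 region among them, from gels of targeted primer extension, and those data were not analysed here.

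The 17 weak sites were spread from nucleotide 64 to 3119, and 16 of them were single nucleotides. Their highest single TCR ranged from 1.03% to 6.65%, and the median of their TCR over 3 nucleotides was 3.70%. This TCR was under 5% at 12 of them and over 5 times the library without MNase at 14. None of the single values exceeded the highest of the 45 nucleotides that were higher without MNase, 17.4%. A stop above that would mostly have counted as a major site, so this is largely set by the rule.

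Among the weak sites, 479 and 2067 were those where MNase-rpL27 was over 2 times higher than MNase-rpL35. At nucleotide 479 (454703) the TCR over 3 nucleotides was 6.74% with MNase-rpL35, 16.9% with MNase-rpL27, 0.417% with MNase-rpL5 and 0.190% without MNase. The nucleotide alone had 3.45% with MNase-rpL35, just above a noise of 3.05%. Like the major site at 248, it had the order MNase-rpL27, MNase-rpL35, MNase-rpL5.

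Nucleotide 2125 (453057) was higher with MNase-rpL35 and MNase-rpL5 than with MNase-rpL27. Over 3 nucleotides it had 8.96%, 6.74% and 1.77% in that order, and 1.39% without MNase. Its peak was symmetrical with MNase-rpL35, with 1.52% and 1.59% on either side of 6.06%.

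At 4 weak sites, 1287, 1302, 2020 and 3119, the 3 fusions lay within 1.5 times of each other. Nucleotide 1302 (453880) had a TCR over 3 nucleotides of 4.92% with MNase-rpL35, 4.71% with MNase-rpL27, 4.50% with MNase-rpL5 and 0.502% without MNase. Nucleotide 2020 (453162) had 1.49%, 1.50%, 1.46% and 0.0760% in the same order. Over 3 nucleotides, both sites thus differed from the library without MNase and not between the fusions by more than 1.5 times. Nucleotide 2020 by itself had 1.49% with MNase-rpL35, barely above the noise of 1.45%. MNase-rpL27 (1.01%) and MNase-rpL5 (0.656%) were below the noise there. At nucleotide 2024 (453158), the highest single nucleotide among the weak sites, MNase-rpL35 gave 7.16%, MNase-rpL5 7.52% and MNase-rpL27 4.99%, against 0.604% without MNase. In 27SB-preLSUs, however, nucleotide 2024 alone had 36.7% without MNase and 11.2% with MNase-rpL35, so it was a strong stop without nuclease in the other purification. The sites at 1287, 1350, 1545 and 3119 had 1.50% to 4.25% with MNase-rpL35 and at least 1.18% with either other fusion.

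At 4 weak sites, 1134, 1244, 2029 and 2619, MNase-rpL35 was over 2 times both other fusions, well short of the ratio of 14.7 at 1763. Stops of any height were more frequent in the MNase-rpL35 library than with the other fusions. It had 184 compared nucleotides of at least 1% and above the noise, against 118 with MNase-rpL27 and 128 with MNase-rpL5. The library without MNase had the most, 211. The share of all compared nucleotides over 2 times both other fusions was not counted, so these sites cannot be called particular to MNase-rpL35. At the 4 weak sites the TCR over 3 nucleotides was 2.82%, 2.15%, 2.65% and 1.98%, against 1.07%, 0.575%, 1.32% and 0.811% with the next fusion. Nucleotide 1244 (453938) had the highest ratio to the next fusion of these 4, 3.74, but its own TCR of 1.03% barely exceeded the noise of 1.01%. At 1134 the window without MNase had 1.82%, so MNase-rpL35 was only 1.55 times higher there. In 27SB-preLSUs, the earlier precursor described at the end, nucleotide 1134 was a strong stop without MNase (26.7%, against 13.4% with MNase-rpL35), so this position also stopped reverse transcription with no nuclease. Nucleotide 555 (454627), listed at 0 without MNase, had 3.11% with MNase-rpL35, 1.28% with MNase-rpL27 and 0.823% with MNase-rpL5. Nucleotide 64 (455118) had 1.56% with MNase-rpL35, 1.67% with MNase-rpL27, 0.261% with MNase-rpL5 and 0.136% without MNase.

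Nucleotide 618 (454564) needs separate mention because its neighbour 619 was a strong stop in every library. At 618 itself MNase-rpL35 had 3.87%, MNase-rpL5 3.27%, MNase-rpL27 2.35%, and the library without MNase was listed at 0. At 619 the values were 43.0% with MNase-rpL35, 28.4% with MNase-rpL5, 22.2% with MNase-rpL27 and 9.92% without MNase. The TCR over 3 nucleotides centred on 618 was 45.9% against 9.92%, 4.62 times higher and below the 5-fold required of a major site.

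**Figure D4:**
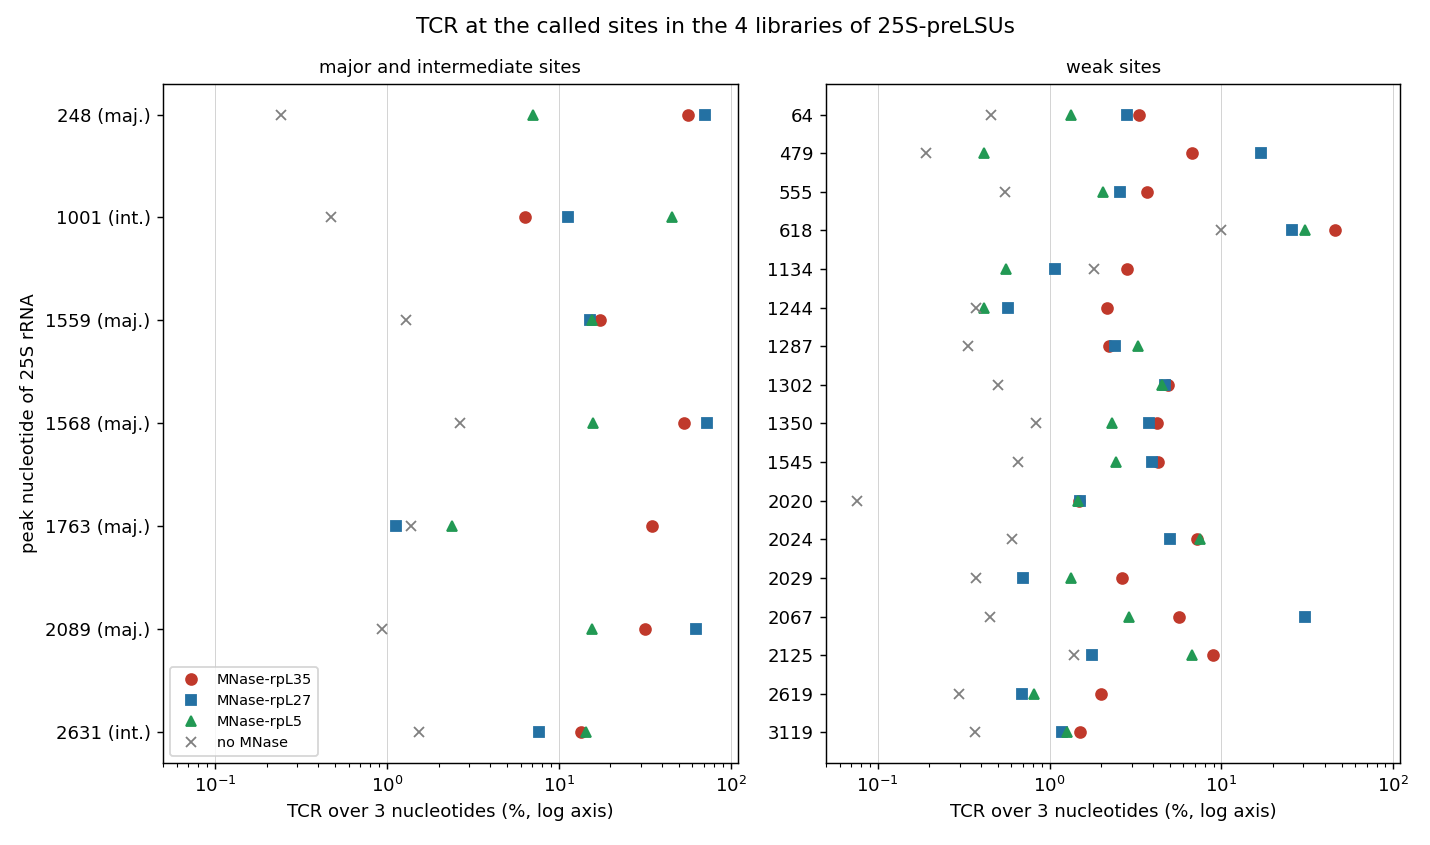
TCR over 3 nucleotides in percent, on a log axis, at the 24 sites in the 4 libraries of 25S-preLSUs, with the major (maj.) and intermediate (int.) sites on the left and the weak sites on the right. Red circles of MNase-rpL35 stand apart from both other fusions at 1763, while at 1559, 1302, 2020 and 3119 the 3 fusions nearly coincide.

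Counted the same way against the same library without MNase, MNase-rpL27 had 45 dependent stop nucleotides (1.33%) and MNase-rpL5 had 31 (0.919%). With the libraries exchanged, 118 nucleotides (3.50%) were higher without MNase than with MNase-rpL27, and 90 (2.67%) than with MNase-rpL5. MNase-rpL35 thus differed least from the library without MNase in this direction. The library without MNase was the highest of all 4 at every one of the 45 nucleotides counted as higher without MNase than with MNase-rpL35. These were chosen by a high TCR without MNase, so this ranking is partly set by the rule. Such nucleotides included 789 (17.4% without MNase, 1.56% with MNase-rpL35, 0.730% with MNase-rpL27 and 1.07% with MNase-rpL5) and 1524 (14.1%, 2.45%, 3.19% and 7.37%, in that order). At 2890 the 4 values were 14.1%, 1.27%, 1.03% and 0.604%, at 2147 they were 12.8%, 1.43%, 0.906% and 0.911%, and at 1583 they were 12.7%, 1.47%, 0.680% and 5.22%. The part of the library without MNase in the weak sites was not tested.

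Dependent stops were unevenly placed along 25S rRNA. Divided into stretches of 200 nucleotides, the stretch from 2001 to 2200 held 12 of the 43 nucleotides, that from 1401 to 1600 held 8 and that from 201 to 400 held 5. None lay between 2125 and 2619, a gap of 493 nucleotides that takes in ES31, and none between 2631 and 3119 (487 nucleotides) or between 618 and 1001 (382 nucleotides). The nucleotides higher without MNase did fall in these gaps, with 9 from 601 to 800 and 6 from 2801 to 3000.

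The TCR with MNase-rpL35 minus that without MNase, summed where positive, came to 789 percentage points over the compared nucleotides. The summed difference where negative was 841 points, so the summed TCR was not higher with MNase-rpL35. With coverage unknown, a sum of TCRs does not give the number of stops. Major sites, with 20 nucleotides, held 40.8% of the positive sum, weak sites 5.72% and intermediate sites 1.71%. The other 51.8% lay at nucleotides that were not counted as dependent stops. Sites 1567 to 1572 and 1559 lie in the stretch from 1401 to 1600, which had the highest share of any stretch, 19.7%, followed by 15.1% from 201 to 400 and 14.5% from 2001 to 2200.

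Values at the edges of the rule describe how sharply it divides the profile. Nucleotide 3119 passed with a ratio of 5.39 to the library without MNase (1.33% against 0.247%), and 1121 failed with 4.84 (1.24% against 0.256%). Nucleotide 1244 passed the minimum of 1% with 1.03%, and 997 failed with 0.951%. Nucleotide 1350 passed with 1.87% over a noise of 1.86%, and 589 failed with 1.75% under a noise of 1.76%. All 6 are weak stops, and 32 nucleotides met the minimum and the fold without exceeding the noise.

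In 27SB-preLSUs, an earlier precursor from a separate purification via Noc3-TAP, 24 nucleotides (0.712%) met the rule with MNase-rpL35 against the library without MNase of that purification. Side by side, the TCR over 3 nucleotides with MNase-rpL35 was 26.1% at 1763 in the earlier precursor against 35.03% in the later one, and in the same order it was 49.4% and 17.5% at A1559, 29.3% and 53.6% at U1568, 9.17% and 56.9% at 248, and 0.917% and 31.8% at A2089. Without MNase, 27SB-preLSUs had 2.28%, 2.48%, 7.64%, 1.18% and 0.573% at the same positions. At A1571 the window in 27SB-preLSUs had 30.2% with MNase-rpL35 and 22.3% without MNase, so the 2 libraries were close there. Among the weak sites, the single nucleotides 2619 and 3119 had 1.63% and 3.65% without MNase in 27SB-preLSUs, against 0.981% and 2.12% with MNase-rpL35. Nucleotides 555, 2020 and 2029 were also higher without MNase than with MNase-rpL35 there. Their values without MNase, 2.00%, 1.00% and 0.890%, were below the noise of that purification. The stops near 248 were placed differently in the earlier precursor, with 0.776% at 248, 8.34% at U249 and 7.77% at U250, and over nucleotides 247 to 251 together MNase-rpL35 stopped 16.98% of fragments there against 73.2% in 25S-preLSUs.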

How the data were processed

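The authors mapped reads to the rDNA with Bowtie2 (version not given in the sources used here, with R64 and sacCer3 named in the submitters' processing notes), counted unique cDNA fragments by random barcodes within limits of insert size, and deposited the TCR and their noise estimate as a fraction of 0 to 1 per nucleotide. Fractions are printed as percent. The TCR over 3 nucleotides was 1 minus the product of 1 minus each TCR. Noise was taken at the central nucleotide and refers to single nucleotides, also where the TCR over 3 nucleotides was compared with it. Named sites were all major, intermediate and weak sites, the positions studied by the authors and the 5 nucleotides highest without MNase under the exchanged rule. The rules and the named positions were chosen with earlier results of these data known. The fold, minimum, noise, window and distance were varied as alternatives. No genome sequence was used here, so bases are named only where the study names them. Chromosomal positions were computed from the end of RDN25-1. Python 3.11.15, numpy 2.4.6, pandas 2.3.3 and matplotlib 3.10.9 were used.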

Additional observations from a re-analysis of the deposited data

Results flagged for a closer look

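Outside 25S rRNA, the library with MNase-rpL35 met the criteria of a major site at 3 positions of 18S rRNA, which belongs to the small subunit and was not part of the comparison above. The search took in the other rRNAs and the spacers, and left out no positions around 5’ ends or modified nucleotides. It was not repeated with the libraries exchanged, so the 3 positions have no background count. Nucleotide 135 passed the 5-fold only narrowly. At nucleotide 135 of 18S rRNA the TCR over 3 nucleotides was 26.6% with MNase-rpL35, 32.4% with MNase-rpL27, 17.6% with MNase-rpL5 and 5.22% without MNase. At nucleotide 438 it was 17.1%, 17.5%, 15.9% and 2.44% in the same order. At nucleotide 930 it was 16.9%, 8.34%, 11.2% and 0.891%.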

How the results depend on the processing

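The count of 5 major sites stayed between 4 and 6 under the alternatives tried, and their share of the positive sum between 37.0% and 46.1%. A fold of 3 added a site and a minimum of 20% lost A1559. Counts of weaker stops depended on the rule. Above 2 times the noise, 26 nucleotides in 13 sites remained, and without a noise criterion there were 75 in 45. Taking the TCR over 3 nucleotides throughout gave 126 in 42, and a minimum of 2% gave 15 sites. Chosen after seeing the data, also requiring over 2 times both other fusions left 8 nucleotides in 6 sites, and also requiring over 5 times the library without MNase of 27SB-preLSUs left 31 in 16. At single sites, the TCR of the stop nucleotide alone differed from that over 3 nucleotides by over 1.5 times at 11 of 24. The unknown coverage and the single library per condition limit every value. No paired analysis was possible because each condition has 1 library and no test was run.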
